A study of Mus musculus with 24 samples.

Results

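Bhlhe41 and 9 genes of the circadian clock (Bhlhe40, Per1, Per2, Cry1, Nr1d1, Nr1d2, Arntl, Clock and Dbp) were followed in T6E cells, a murine T-cell leukaemia line driven by Notch1, under loss and gain of the Notch signal. These 10 genes, of 19938 with a probe set of 1 symbol on the array, were listed by name, and each had 1 probe set. Bhlhe41 was chosen by its response in these arrays, its log2 differences between the groups, so its levels and differences are given as a description with no test. The other 9 were listed for their place in the clock and were tested over all 19938 genes. That list was drawn up with earlier results of these data known, which limits what the p-values of its members can show.

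The cells were transfected with MigR1 (the empty vector), DNMAML, ICN1 or R1984A. DNMAML is a dominant negative Mastermind-like, which occupies the Notch transcription complex without activating it. ICN1 is the intracellular part of Notch1, active without cleavage, and R1984A is an ICN1 that is defective in dimerization. Each was cultured for 6 hours with DMSO, the solvent, or with 1 uM compound E, an inhibitor of gamma-secretase (GSI) that stops the cleavage of the cells' own Notch1. This made 8 groups of 3 arrays, such as DNMAML-GSI. The cells' own Notch1 gene is present in all groups, so ICN1 and R1984A act on top of it in DMSO and largely without its signal in GSI. The labels used here give no time of day and no synchronization of the cells, and they do not say whether a group's 3 samples were grown apart. The p-values measure differences against the spread among samples within the 8 groups, pooled over all 24 arrays, and that spread may be technical.

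The clock of mammalian cells is a loop of transcription factors. ARNTL (also called BMAL1) and CLOCK pair up, bind E-boxes and switch on Per, Cry, Nr1d, Dbp and Bhlhe40 and Bhlhe41. PER and CRY proteins then inhibit that pair, BHLHE40 and BHLHE41 compete with it at E-boxes, and NR1D1 and NR1D2 (the REV-ERB receptors) repress Arntl through response elements that they share with the activating ROR receptors. In lymphocytes BHLHE40 and BHLHE41 are also known as regulators of differentiation and cytokine genes.

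All values are log2 values of 1 probe set, so levels are compared between groups and not between genes. The medians of the 24 arrays lay between 3.90 and 4.18, and a value in or below that span was read as near background. Where the arrays of a pair of groups do not overlap, this is a description and no test. The share of all genes without overlap is not given here. Within groups, r between arrays was 0.982 to 0.994, taken over genes, which are no independent replicates. In all 8 groups the array with the highest median was replicate 3. The Notch1 probe set was higher than in MigR1-GSI by 1.65 (SE 0.13, adjusted p = 1.8e-08) in ICN1-GSI and by 1.41 (SE 0.13, adjusted p = 4.3e-07) in R1984A-GSI in the limma fit. Of 7 measured T-cell markers 6 averaged above every array median, and Cd5, at 4.11, did not. Of 4 B-cell and 6 myeloid markers 0 did, of 2 erythroid markers Epor (4.47), and of 5 stromal or epithelial markers Col1a1 (5.06) and Col1a2 (4.78). Of these 17 markers of other cells, 0 were called in the 12 pairwise comparisons. Of the T-cell markers, limma called Cd247 and Thy1 higher with DNMAML in DMSO and Ptprc lower with ICN1 in GSI, against MigR1 and against R1984A. The mean of the 7 T-cell markers ran from 8.62 to 8.74 over the DNMAML-DMSO arrays and from 8.24 to 8.43 in MigR1-DMSO, and from 8.04 to 8.23 in ICN1-GSI and 8.25 to 8.49 in MigR1-GSI. Its part in the results for Bhlhe41 and Arntl, which differ between the same groups, was not tested.

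Bhlhe41, the repressor also known as DEC2, was highest where Notch was blocked by DNMAML and low where ICN1 or R1984A was added, with its lowest group mean in ICN1-DMSO. In MigR1-DMSO its 3 arrays read 5.33, 4.76 and 4.93, and in MigR1-GSI they read 6.11, 5.54 and 5.41. In DNMAML-DMSO they read 6.41, 6.46 and 6.55, and in DNMAML-GSI 6.43, 6.57 and 6.65. The 6 DNMAML arrays stood above all 18 others, and the MigR1-GSI arrays above those of MigR1-DMSO. In ICN1-DMSO the arrays read 4.03, 3.53 and 3.69, and in ICN1-GSI 4.46, 4.02 and 4.27. In R1984A-DMSO they read 4.50, 4.29 and 4.55, and in R1984A-GSI 4.68, 3.79 and 4.16. Every array with ICN1 or R1984A was thus below every array with the empty vector, and several lay near background.

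By group mean the order was DNMAML-GSI (6.55 ± 0.11), DNMAML-DMSO (6.47 ± 0.07), MigR1-GSI (5.69 ± 0.37), MigR1-DMSO (5.01 ± 0.29), R1984A-DMSO (4.45 ± 0.14), ICN1-GSI (4.25 ± 0.22), R1984A-GSI (4.21 ± 0.45) and ICN1-DMSO (3.75 ± 0.26) (SD, n = 3 each). Neighbours in this order did not overlap between DNMAML-DMSO and MigR1-GSI, between MigR1-GSI and MigR1-DMSO, and between MigR1-DMSO and R1984A-DMSO. The other neighbours overlapped, so the 2 DNMAML groups have no order between them, nor do adjoining groups among the 4 with ICN1 or R1984A. The 3 arrays of ICN1-DMSO all lay below those of R1984A-DMSO, which are not neighbours in that order.

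**Figure D1:**
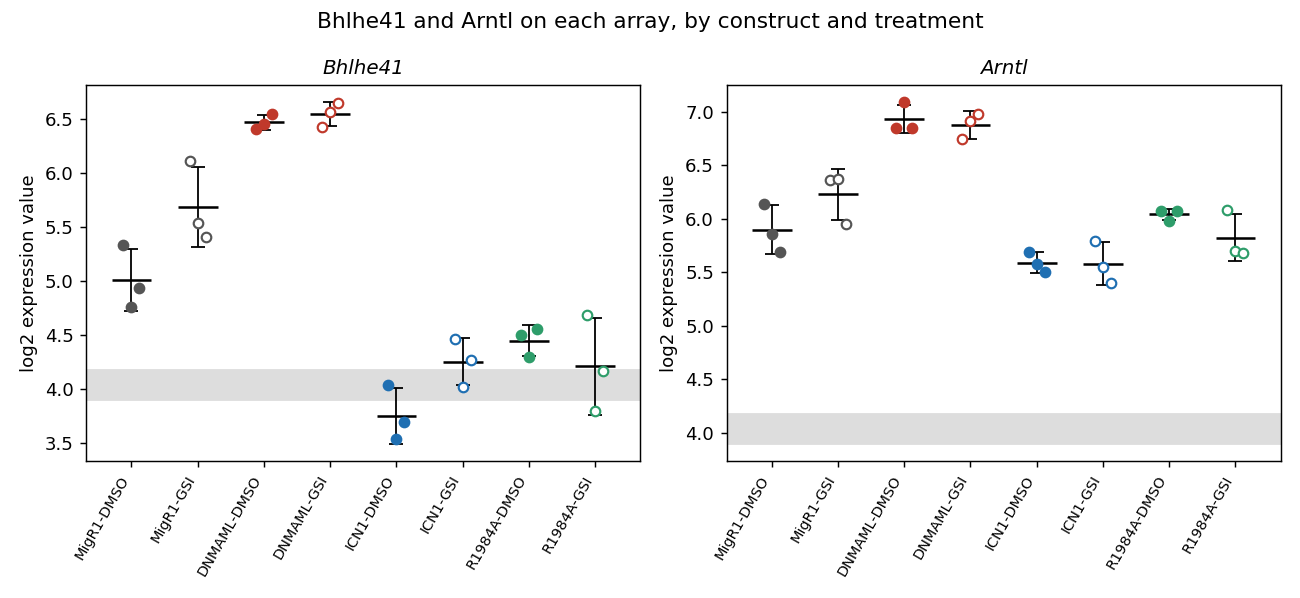
Log2 values of Bhlhe41 (left) and Arntl (right) on each of the 24 arrays, by group on the x axis. Points are arrays (filled for DMSO, open for GSI), the black line is the group mean with its SD over 3 arrays, and the grey band spans the array medians of 3.90 to 4.18. The DNMAML arrays are the highest in both panels, and those with ICN1 are low in both, near background for Bhlhe41 alone.

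As log2 differences in the fit of all arrays, Bhlhe41 stood 1.46 (SE 0.20) higher in DNMAML-DMSO than in MigR1-DMSO, a 2.76-fold difference, and 0.86 (SE 0.20) higher in DNMAML-GSI than in MigR1-GSI. GSI alone, in MigR1 cells, gave a difference of 0.68 (SE 0.20), or 1.60-fold. In GSI the difference from MigR1 was -1.44 (SE 0.20) with ICN1 and -1.47 (SE 0.20) with R1984A. These 5 differences share the MigR1-DMSO or the MigR1-GSI arrays and are not independent of each other. Since the arrays with ICN1 or R1984A came close to background, the sizes of the last pair may be understated.

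The forms of Notch1 with and without dimerization overlapped in GSI and did not overlap in DMSO. As a description, ICN1-GSI minus R1984A-GSI was 0.04, with a 95% interval of -0.38 to 0.45, and the sign turned without ICN1-GSI replicate 1 (-0.07) or without R1984A-GSI replicate 2 (-0.17). In DMSO the difference was -0.69 (SE 0.20, interval -1.11 to -0.28), also as a description. The ICN1-DMSO arrays, from 3.53 to 4.03, were all near background. Since Bhlhe41 was chosen by such differences, these intervals are no test. Whether the difference between the forms itself differs between DMSO and GSI was not tested. Against MigR1-DMSO, ICN1-DMSO stood at -1.26 (SE 0.20) and R1984A-DMSO at -0.56 (SE 0.20).

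The response of Bhlhe41 to GSI also varied between constructs. It was 0.08 (SE 0.20) in DNMAML cells, 0.50 (SE 0.20) in ICN1 cells and -0.23 (SE 0.20) in R1984A cells, where the arrays of the 2 treatments overlapped in each case. Minus the response of MigR1 cells, this came to -0.60 (SE 0.28) for DNMAML, -0.18 (SE 0.28) for ICN1 and -0.91 (SE 0.28) for R1984A.

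By replicate number, the differences kept 1 sign in 10 of the 12 comparisons. For GSI in MigR1 cells, same-numbered arrays differed by 0.78, 0.78 and 0.48, and for DNMAML in DMSO by 1.08, 1.70 and 1.61. For DNMAML in GSI they differed by 0.32, 1.03 and 1.24, a wide spread. GSI in ICN1 cells gave 0.43, 0.49 and 0.58, although the arrays overlapped slightly (4.03 in DMSO and 4.02 in GSI). By the rule used here the numbers do not pair those samples, and the ICN1-DMSO arrays were near background. GSI in DNMAML cells gave 0.02, 0.11 and 0.10. The sign was mixed for GSI in R1984A cells (0.18, -0.49 and -0.39) and for ICN1 against R1984A in GSI (-0.22, 0.23 and 0.10). Replicate 1 had the highest Bhlhe41 value in 5 of the 8 groups and replicate 3 in the other 3, which include both DNMAML groups.

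Arntl encodes BMAL1, the partner of CLOCK and the activating arm of the clock, and it was the only one of the 9 tested members to be called in any comparison. Its 3 arrays read 6.14, 5.86 and 5.69 in MigR1-DMSO, and 6.85, 7.09 and 6.85 in DNMAML-DMSO. Arntl rose with DNMAML in DMSO by 1.03 (SE 0.14, limma adjusted p = 0.00018), a 2.05-fold difference with no overlap of the arrays. Same-numbered arrays differed by 0.72, 1.23 and 1.16. In this comparison 1 of the 9 members was called, and 1.94% of all genes were. A single call among 9 is too few to set against that share.

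In GSI, the Arntl arrays read 6.36, 6.37 and 5.95 with MigR1, 6.74, 6.91 and 6.98 with DNMAML, 5.79, 5.55 and 5.40 with ICN1, and 6.08, 5.70 and 5.68 with R1984A. Again all DNMAML arrays were the highest, and the ICN1 arrays all lay below those of MigR1. Arntl fell by 0.65 (SE 0.14, limma adjusted p = 0.011) with ICN1 against MigR1 in GSI, where 2.35% of all genes were called and Arntl alone of the 9 members. That call was lost without MigR1-GSI replicate 1 (adjusted p = 0.064), without MigR1-GSI replicate 2 (0.069), without ICN1-GSI replicate 3 (0.075) and with only these 6 arrays in the fit (0.17), while the difference stayed between -0.78 and -0.56 as single arrays were left out.

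With DNMAML in GSI, Arntl was 0.65 (SE 0.14) above MigR1-GSI, which limma did not call (adjusted p = 0.066; 0 of 9 members, 0.191% of all genes). The replicate numbers pair the samples of this comparison, and with them as a block limma's adjusted p was 0.0086. Calls over all genes then went from 38 to 163. R1984A-GSI minus MigR1-GSI was -0.41 (SE 0.14, adjusted p = 0.32), where 0 of 9 members and 1.36% of all genes were called. The ICN1 and R1984A groups differed by -0.24 in GSI (interval -0.53 to 0.05) and by -0.45 in DMSO (SE 0.14, adjusted p = 0.21), with 0 of 9 members against 1.1% and 0.963% of all genes. In DMSO the arrays read 5.69, 5.58 and 5.50 with ICN1 and 6.07, 5.98 and 6.07 with R1984A, so that all 3 ICN1 arrays were the lower ones.

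GSI in MigR1 cells left Arntl at 0.33 (SE 0.14, adjusted p = 0.95), with 0 of 9 members and 0.166% of all genes called, and same-numbered arrays differed by 0.22, 0.51 and 0.26. The responses to GSI in DNMAML (-0.05), ICN1 (-0.01) and R1984A cells (-0.22) were not called (SE 0.14 each), in comparisons where 0.00502%, 0% and 0% of all genes were. By group mean, Arntl ran from DNMAML-DMSO (6.93 ± 0.13) and DNMAML-GSI (6.88 ± 0.13) through MigR1-GSI (6.23 ± 0.24), R1984A-DMSO (6.04 ± 0.05), MigR1-DMSO (5.90 ± 0.23), R1984A-GSI (5.82 ± 0.22) and ICN1-DMSO (5.59 ± 0.10) to ICN1-GSI (5.58 ± 0.20) (SD, n = 3 each). DNMAML-GSI and MigR1-GSI were the only neighbours in this order whose arrays did not overlap.

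**Figure D2:**
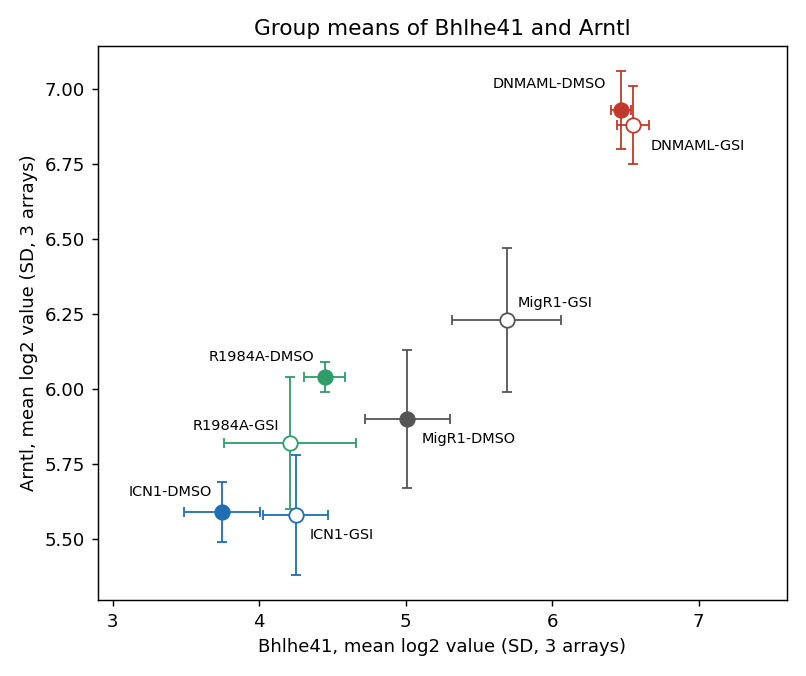
Group means of Bhlhe41 (x axis) and Arntl (y axis) as log2 values, with SD over 3 arrays as bars, filled for DMSO and open for GSI. Both genes are highest in the DNMAML groups, and R1984A-DMSO stands above MigR1-DMSO for Arntl (6.04 and 5.90) but below it for Bhlhe41 (4.45 and 5.01).

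Of all genes, 0.0702% had a wider range of group means than Bhlhe41 (2.80) and 1.08% a wider one than Arntl (1.35), beside a median range of 0.30. Bhlhe41 was chosen by its differences between these groups, so its wide range follows from that choice. Bhlhe41 and Arntl took similar courses over the groups, with r of 0.95 over the 8 group means. As a description it has no p, since the groups share constructs and Bhlhe41 was chosen with its values known. After the group means were subtracted, the deviations of the 24 arrays correlated with r of 0.69. Nr1d2 deviated with Bhlhe41 as well (r of 0.55), although its group means ran the other way (r of -0.83). Both kinds of deviation are read on the same arrays, whose median moved with the replicate number, and its part in them was not tested.

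The stretches before the start sites of Bhlhe41 and Arntl are shown because both genes were highest in the DNMAML groups and low in the ICN1 groups. They parted in R1984A-DMSO, where Arntl was above MigR1-DMSO (6.04 and 5.90) and Bhlhe41 below it (4.45 and 5.01). They are from RefSeq (GRCm38.p6), 250 bases each, with capitals for a match to an E-box.
Bhlhe41, chr6:145865421-145865670, minus strand: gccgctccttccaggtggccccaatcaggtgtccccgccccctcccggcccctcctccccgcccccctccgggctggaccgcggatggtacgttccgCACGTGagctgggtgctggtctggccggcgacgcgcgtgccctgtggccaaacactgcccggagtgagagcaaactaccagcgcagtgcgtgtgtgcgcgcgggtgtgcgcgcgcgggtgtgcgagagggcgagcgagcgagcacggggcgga
Arntl, chr7:113207215-113207464, plus strand: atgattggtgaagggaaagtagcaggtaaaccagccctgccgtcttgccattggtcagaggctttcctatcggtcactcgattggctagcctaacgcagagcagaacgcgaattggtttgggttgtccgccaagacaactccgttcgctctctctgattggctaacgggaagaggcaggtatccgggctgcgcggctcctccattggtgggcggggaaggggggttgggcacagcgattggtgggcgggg
The E-box of Bhlhe41 begins 153 bases before the start site. The Arntl stretch holds none.

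Windows from 250 bases before to 50 after a start site were on hand for 8 of the 10 members (12 windows), with Bhlhe40 and Per2 not in the table. The E-box CACGTG, which reads the same on either strand, was found in the windows of Bhlhe41, Per1 and Cry1, and in 7.15% of 32851 windows of all genes. TGGGAA, the core of sites bound by RBPJ, the DNA-binding partner of Notch, was found on either strand in 1 member window, that of Per1, and in 25.6% of all windows. TAGGTCA, the core of the element shared by ROR and REV-ERB receptors, was found in 2.61% of all windows and among the members in Arntl alone, 30 bases past the start site of its other window. That match is shown because NR1D1, NR1D2 and RORA are known to act on Arntl through such elements.
Arntl, chr7:113207532-113207556, plus strand: ggcagaaagTAGGTCAgggacggag
The D-box TTANGTAA was found in 0 of the 12 member windows and in 2.32% of all, on either strand. These motifs do not overlap each other in the windows with matches. A match is only a description of the sequence, and a window without one says nothing about binding elsewhere.

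No other member was called in any comparison of the main test. Clock, which encodes the partner of BMAL1, had its group means between 6.33 (DNMAML-DMSO) and 6.64 (R1984A-GSI), and its difference with the lowest unadjusted p was -0.20 (SE 0.14, limma adjusted p = 0.73) for DNMAML in DMSO. The interval of that difference was -0.49 to 0.09. Bhlhe40, the paralogue of Bhlhe41 also known as DEC1, ran from 3.55 (ICN1-DMSO) to 3.92 (MigR1-GSI) by group mean, near background throughout. Its arrays read 3.60, 3.67 and 3.43 in MigR1-DMSO and 3.81, 4.18 and 3.78 in MigR1-GSI, without overlap, at a difference of 0.36 (SE 0.14, limma adjusted p = 0.83). The DNMAML-DMSO arrays, at 3.86, 3.94 and 3.94, also lay above MigR1-DMSO, by 0.34 (SE 0.14, limma adjusted p = 0.31).

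Among the inhibitors of the loop, Cry1 had the largest difference. Its arrays read 6.14, 6.16 and 6.11 in MigR1-DMSO and 5.96, 5.89 and 5.46 in MigR1-GSI, and 6.49, 6.15 and 5.99 in ICN1-GSI. The MigR1-GSI arrays were below both other groups, with MigR1-GSI replicate 3 the lowest of all 24. ICN1-GSI minus MigR1-GSI was 0.44 (SE 0.16, limma adjusted p = 0.23), and not called. Per1, a sensor of acute signals as well as a clock gene, lay between group means of 4.74 (MigR1-GSI) and 5.04 (R1984A-GSI), and Per2 between 3.61 and 3.82, near background. Their differences of lowest unadjusted p were 0.30 (SE 0.17, adjusted p = 0.81) and -0.21 (SE 0.14, adjusted p = 0.91), both for R1984A against MigR1 in GSI. The one for Per2 turned to 0.04 when arrays were weighted by quality.

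The REV-ERB genes, which repress Arntl, were not called either. Nr1d1 read 4.82, 4.68 and 4.88 in MigR1-DMSO and 4.43, 4.63 and 4.30 in DNMAML-DMSO. All DNMAML-DMSO arrays were the lower ones, at a difference of -0.34 (SE 0.15, limma adjusted p = 0.42), and the lowest group mean was that of DNMAML-GSI (4.35). Nr1d2 had its lowest group mean in MigR1-GSI (5.50) and its highest in ICN1-DMSO (5.98), and R1984A-GSI minus MigR1-GSI was 0.32 (SE 0.17, adjusted p = 0.73). Dbp, an activator at D-boxes whose RNA follows the clock closely, spanned the narrowest range, from 4.90 (R1984A-DMSO) to 5.06 (MigR1-DMSO).

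**Figure D3:**
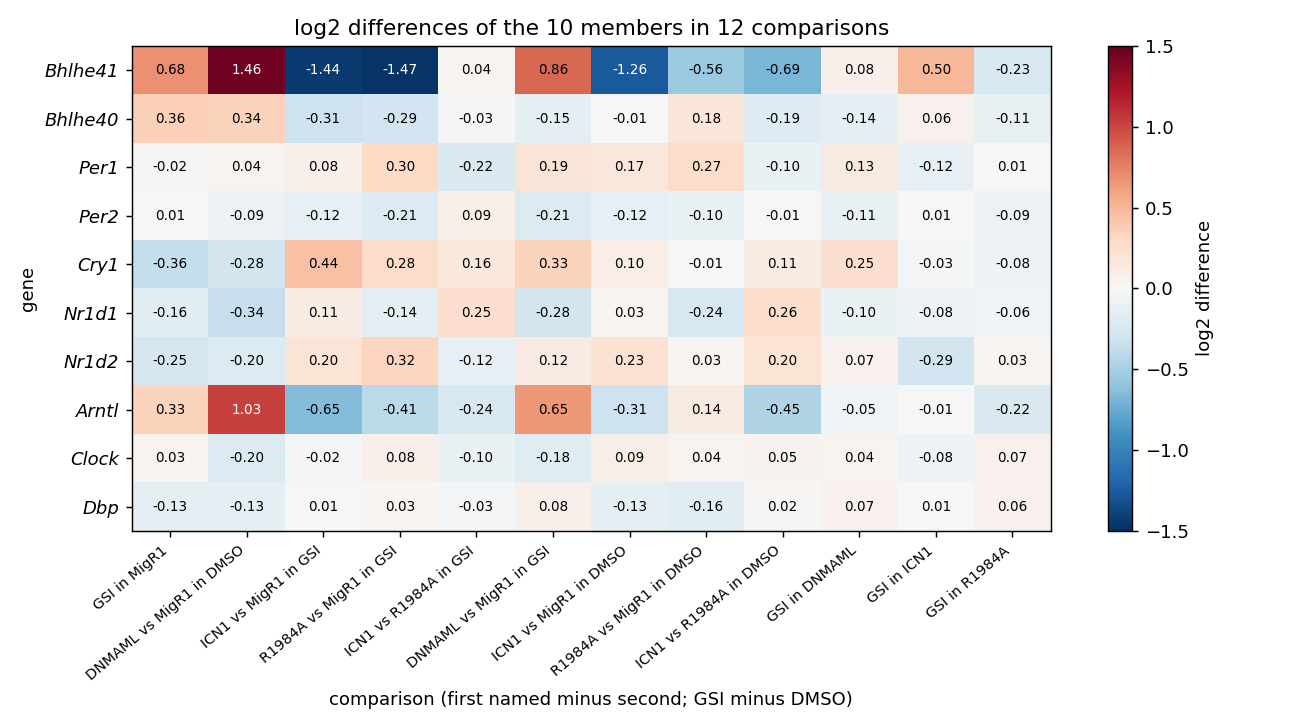
Log2 differences of the 10 members (rows) in the 12 pairwise comparisons (columns), each the first named group minus the second or GSI minus DMSO, in red for higher and blue for lower. Bhlhe41 and Arntl carry the strongest colours, from -1.47 to 1.46 and from -0.65 to 1.03, and the other 8 genes stay between -0.36 and 0.44.

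**Figure D4:**
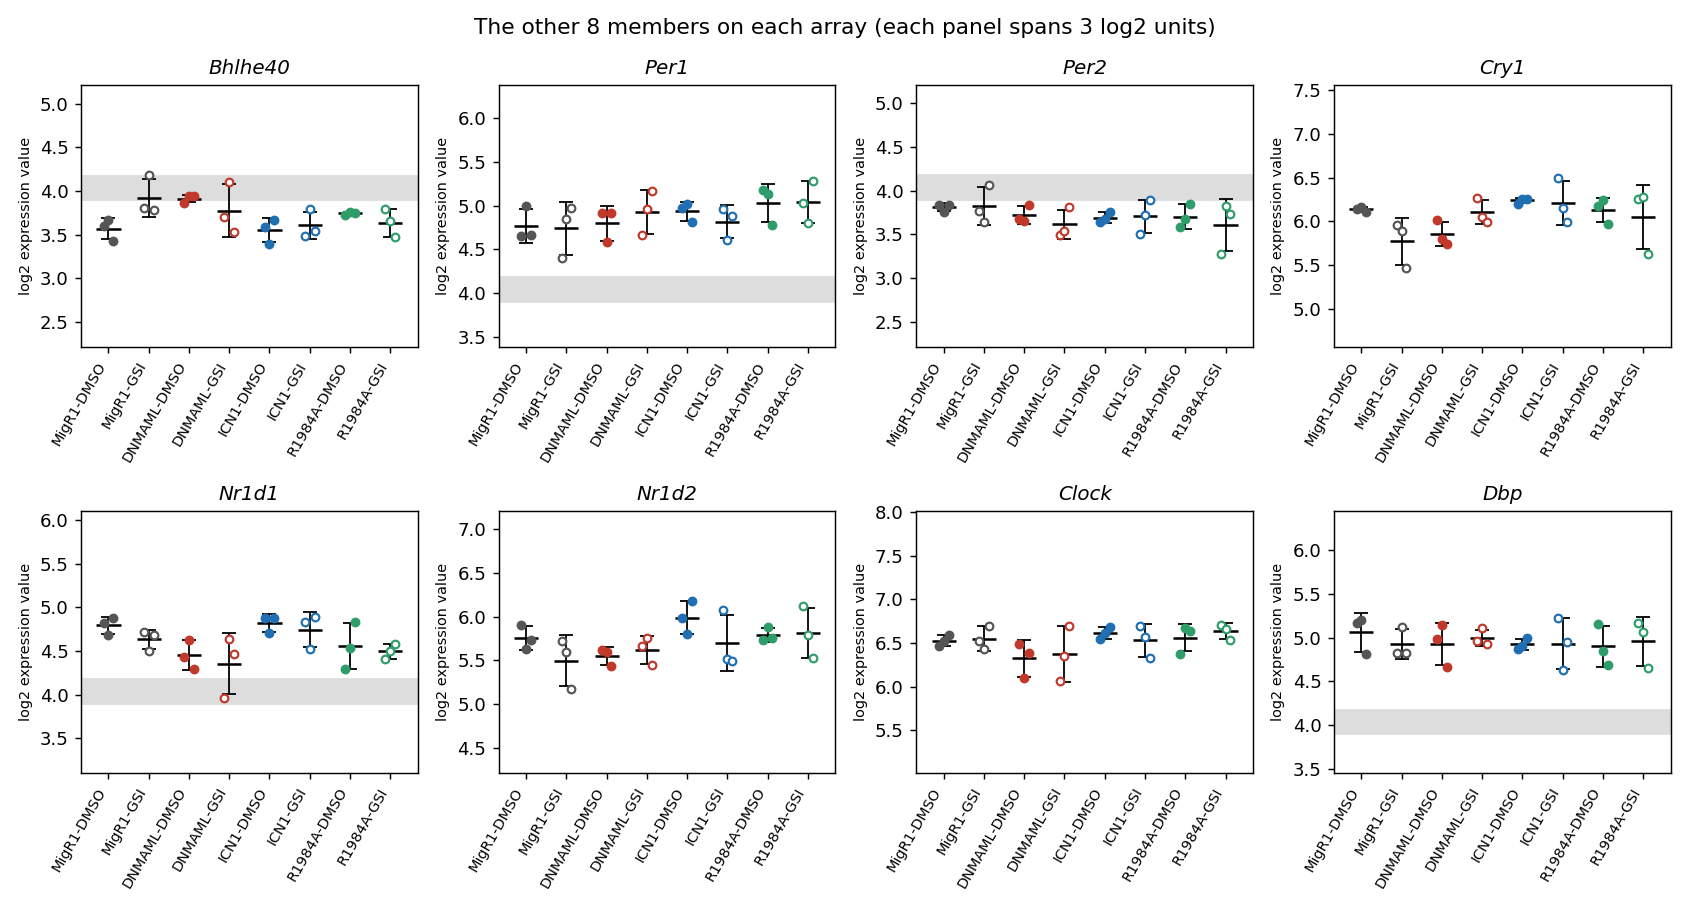
Log2 values of the other 8 members on each array, by group, drawn as for Bhlhe41 and Arntl with every panel spanning 3 log2 units. Group means differ by at most 0.49 (Nr1d2), and Bhlhe40 and Per2 lie at or below most array medians (grey band).

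Called members numbered 0 or 1 of the 9 in each pairwise comparison of the main test. Before adjustment, limma's p was under 0.05 for 3 of 9 (33.3%) with DNMAML in DMSO (Bhlhe40, Nr1d1 and Arntl), against 10.4% of all genes. There were also 3 each (33.3%) for GSI in MigR1 cells and for ICN1 against MigR1 in GSI, against 4.88% and 10.7%. They were Bhlhe40, Cry1 and Arntl in both. For R1984A against MigR1 in GSI 2 of 9 (22.2%) had such a p (Bhlhe40 and Arntl), beside 7.51% of all genes. For DNMAML in GSI it was 2 of 9 as well (22.2%, Cry1 and Arntl), beside 6.26%. These member shares lie above those of all genes. The 9 are few, are read on shared arrays and were listed with earlier results known, so this is no test. In DMSO, 0 of 9 were called for ICN1 or R1984A against MigR1, where 0.727% and 0.978% of all genes were. Before adjustment these had 1 (Arntl; 6.09% of all genes) and 0 (6.66%). ICN1 against R1984A had 0 in GSI (8.88%) and 1 in DMSO (Arntl; 7.07%), and the responses to GSI in DNMAML, ICN1 and R1984A cells had 0 each (2.54%, 2.37% and 3.18%). The median difference over the 9 members was -0.13 for DNMAML in DMSO, 0.01 for ICN1 against MigR1 in GSI and -0.02 for GSI in MigR1 cells, beside 0.00, -0.01 and 0.00 over all genes.

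None of the 9 changed its response to GSI between constructs by a call of limma, with 0 of 9 called for DNMAML, ICN1 and R1984A against MigR1 (0.00502%, 0.015% and 0.0251% of all genes). Before adjustment limma's p was under 0.05 for 2 of 9 (22.2%, Bhlhe40 and Cry1), 0, and 2 (22.2%, Bhlhe40 and Arntl). Beside these stand 3.11%, 3.19% and 3.52% of all genes. For Arntl the difference in response was -0.38, -0.34 and -0.55 (SE 0.20 each, adjusted p = 1 each).

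Of 23 further genes listed for the clock and its outputs, 20 were measured, among them Per3, Cry2, the kinases Csnk1d and Csnk1e, the ROR receptors and the D-box factors Tef, Hlf and Nfil3. Limma called 0 of the 20 in each of the 12 pairwise comparisons, where 0% to 2.35% of all genes were called. At such shares 20 genes are too few to show a lack of response. Those with an unadjusted p under 0.05 numbered 0 to 3 in a comparison. They were 3 for DNMAML in DMSO (Cry2, Rora and Nampt), or 15% of the list beside 10.4% of all genes, with a median of 0.01 over the list. The replicate numbers pair the samples of that comparison, and with them as a block 2 of the 20, Rora and Nampt, were called, as were 934 of all 19938 genes (386 without the block). Nampt, the enzyme that limits the recycling of NAD, was at -0.68 (SE 0.31, limma adjusted p = 0.44) without the block.

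Rora, Nampt and Nfil3 are named here after their values were seen. Rora, the receptor that activates Arntl, averaged 5.47 ± 0.46 in DNMAML-DMSO and 5.59 ± 0.23 in DNMAML-GSI, above its mean in each of the other 6 groups (4.72 to 5.05; SD, n = 3 each). Its difference in DMSO was 0.59 (SE 0.18, limma adjusted p = 0.11), with overlapping arrays, and it was also called there with array weights. Those weights gave 834 calls over all genes in that comparison, against 386 in the main test. Nfil3, a repressor at D-boxes that also steers lymphocyte fate, averaged 5.77 ± 0.19 and 5.78 ± 0.23 in the ICN1 groups and 5.14 ± 0.14 and 5.18 ± 0.13 in the R1984A groups (DMSO and GSI; SD, n = 3 each). All ICN1 arrays were above all R1984A arrays within each treatment, at 0.64 (SE 0.17, limma adjusted p = 0.074) in DMSO and 0.61 (SE 0.17, adjusted p = 0.093) in GSI, neither called. In DMSO, where the numbers pair the samples, Nfil3 was called with the block, as calls over all genes went from 192 to 456. After a further quantile normalization Nfil3 was called in both treatments. Calls over all genes were then 223 in DMSO, and 288 in GSI (220 in the main test).

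Genes whose group means ran most like those of Bhlhe41 were found among 464 genes with a range of group means of at least 1 and a mean above every array median. The closest were the sialyltransferase gene St3gal1 (r of 0.997 over 8 group means, from 5.81 to 7.67), Wfs1 (0.993, 4.62 to 5.66), Plpp3 (0.992, 4.12 to 5.65), the survival gene Bcl2 (0.990, 7.59 to 8.99) and the proton pump subunit Atp6v0a1 (0.987, 4.42 to 6.17). All 5 were lowest in ICN1-DMSO and highest in a DNMAML group. The most opposite were Rundc3b (-0.982), Rbms1 (-0.980), Il2ra, which encodes CD25 (-0.978), the phospholipase gene Pld1 (-0.977) and Cdh1, which encodes E-cadherin (-0.975). Of these Il2ra was highest in R1984A-GSI (8.13) and the other 4 in ICN1-DMSO. Arntl was the 90th of the 464 by this measure. All of these genes are read on the same arrays, and the measure has no p.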

How the data were processed

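RNA of 24 samples was read on Affymetrix arrays, per the labels' protocols. The authors deposited a table of log2 values with 1 value for each probe set on each array. The submitters' processing notes name oligo and limma. How background was corrected and arrays were normalized, and the versions, are not given in the sources used here. A log2 scale was read from the range, 1.28 to 13.47. Of 35556 probe sets, 21789 had 1 symbol in the platform annotation, 1621 several and 12146 none there. For 999 genes with several probe sets the brightest was kept. No dim genes were removed, and the number of arrays limits precision.

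Differences come from limma 3.58.1 (R 4.3.3), 1 mean per group over all 24 arrays (16 residual and 6.56 prior degrees of freedom), with a 2-sided test, called at a Benjamini-Hochberg adjusted p under 0.05 over 19938 genes. The fit was tested on simulated data with independent noise on each array. The simulation held no shared deviation of same-numbered samples, so it cannot show how the fit behaves with such pairing. There were 12 pairwise comparisons and 3 tests of GSI responses. Same-numbered samples deviated together (each r above 0.1) in 8 of the 15, with a lowest r of 0.106 to 0.225, which is where the pairing comes from. That rule alone decided where the numbers are said to pair samples.

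Members and lists were chosen with earlier results of these data known. Listed genes outside the 10 members were given with values where called, or where said to be chosen after their values were seen, and so were the 5 most and 5 least like Bhlhe41 by r. Alternatives were a further quantile normalization, array weights, only the groups compared, the replicate block, a filter on dim genes, the mean of probe sets, an intensity trend, and each array left out.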

Additional observations from a re-analysis of the deposited data

Results flagged for a closer look

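Cry1 was flagged because its DNMAML arrays lay on opposite sides of the MigR1 arrays in DMSO and in GSI. How many of all genes do so is not given here, so the pattern is a description only. All DNMAML-DMSO arrays lay below those of MigR1-DMSO, at a difference of -0.28 (limma adjusted p = 0.61), and all DNMAML-GSI arrays above those of MigR1-GSI, at 0.33 (limma adjusted p = 0.8), neither of them called. The difference between these effects, which is that between the GSI responses of DNMAML and MigR1 cells, was 0.62 (SE 0.23) and was not called by limma (adjusted p = 1). MigR1-GSI replicate 3, at 5.46, was the lowest Cry1 value of the 24 arrays.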

How the results depend on the processing

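The count of called members for DNMAML in DMSO, 1 (Arntl), was the same under all 7 alternatives and with each array left out. For ICN1 against MigR1 in GSI it was 1, and became 0 to 1 with single arrays left out. With only the groups compared it became 0, as calls over all genes went from 469 to 167. With the replicate block it became 2 (Arntl, and Cry1 at a limma adjusted p = 0.036). Calls over all genes then went from 469 to 960. Same-numbered samples of that comparison had r from 0.062 to 0.458, with the lowest under the 0.1 set here for pairing. For DNMAML in GSI the count of 0 became 1 in some settings, each time Arntl (limma adjusted p from 0.0086 to 0.046). These were a further quantile normalization, array weights, the replicate block and the filter on dim genes. Calls over all genes there were 57, 90, 163 and 39 in that order, and 38 in the main test. The filter leaves fewer genes to test. With array weights Arntl was also called for R1984A against MigR1 in GSI (1 member, at -0.58, limma adjusted p = 0.0028). Calls over all genes there went from 272 to 690. With the weights Arntl was called for ICN1 against R1984A in DMSO too (1 member, limma adjusted p = 0.047). Calls over all genes went from 192 to 384 in that comparison. Bhlhe41 moved with array weights to -1.75 for R1984A against MigR1 in GSI, and to -1.24 for the R1984A minus MigR1 difference in GSI response. The block changed no other call among the 9 members. Signs turned for these values, which were not called or, for Bhlhe41, not tested: Per2 for R1984A against MigR1 in GSI (-0.21, then 0.04 with array weights), Bhlhe41 for ICN1 against R1984A in GSI (-0.07 and -0.17; range -0.17 to 0.27) and for the ICN1 minus MigR1 difference in GSI response (0.03; range -0.34 to 0.03), and Arntl for GSI in DNMAML cells (0.03 and 0.02; range -0.10 to 0.03) and in ICN1 cells (0.04, 0.01 and 0.08; range -0.11 to 0.08), apart from Per2 all with 1 array left out. The causes were not tested. Values near the array medians limit Bhlhe40, Per2 and the low groups of Bhlhe41.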

Other observations

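Arntl shares its neighbourhood with another gene called in the same comparisons. By the order of RefSeq genes, the 3 measured genes on either side of Arntl are Parva, Tead1 and Rassf10, and Btbd10, Pth and Far1; they were looked at after the values of Arntl were seen. Tead1, a transcription factor of the Hippo pathway, averaged 5.85 ± 0.33 in MigR1-DMSO, 7.17 ± 0.37 in DNMAML-DMSO, 6.34 ± 0.27 in MigR1-GSI and 4.95 ± 0.22 in ICN1-GSI (SD, n = 3 each). It rose with DNMAML in DMSO by 1.32 (SE 0.24, limma adjusted p = 0.0027) and fell by 1.39 (SE 0.24, limma adjusted p = 0.00092) with ICN1 against MigR1 in GSI. Rassf10, which lies between Tead1 and Arntl, was at 0.24 (SE 0.15, adjusted p = 0.69) and -0.15 (SE 0.15, adjusted p = 0.85). Its group means, from 3.43 (R1984A-GSI) to 3.83 (DNMAML-DMSO), were near background, as were those of Parva and Pth. The lack of a call in these genes thus says little. Btbd10, on the other side of Arntl, was called for ICN1 against MigR1 in GSI, opposite in direction to Arntl, at 0.40 (SE 0.10, adjusted p = 0.036). Of the 6 neighbours, 1 was called for DNMAML in DMSO and 2 for ICN1 against MigR1 in GSI. Beside these stand 1.94% and 2.35% of all genes, and 6 genes are too few to set against such shares. A shared cause in this neighbourhood was not tested.

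Around Bhlhe41, 0 of the 6 nearest measured genes were called by limma in either comparison, beside 1.94% and 2.35% of all genes. Here too 6 genes are too few to set against such shares. At an unadjusted p under 0.05 there was 1 of 6 in each. It was Itpr2, a calcium channel gene, at 0.29 (SE 0.13, limma adjusted p = 0.38) for DNMAML in DMSO and -0.43 (SE 0.13, limma adjusted p = 0.086) for ICN1 against MigR1 in GSI. Of the 6, 1700073E17Rik (group means 3.77 to 3.91), Tuba3b (2.88 to 3.46) and Sspn (2.89 to 3.18) were near background. The lack of a call in them thus says little.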
